A study of Homo sapiens with 2 samples.

Results

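The genes studied here encode the E proteins TCF3, TCF4 and TCF12 and the inhibitors ID1, ID2, ID3 and ID4. They were chosen by name as the dimer partners of NeuroD1 and the proteins that block those partners. Every NeuroD1 peak that overlapped the RefSeq body of 1 of these 7 genes, or lay up to 50 kb from either end, was taken, which gave 13 of the 6183 peaks in the list. The peaks come from ChIP-seq, which sequences the chromatin fragments that an antibody against a factor recovers. The cells were IMR-32, a human neuroblastoma line with amplified MYCN and labelled as wild type, with no treatment named. The series holds 1 library made with a NeuroD1 antibody and 1 input library made without antibody, and the input was not analysed here. With 1 ChIP library there was no replicate, so no test between samples was possible and every interval below covers counting error only. The labels name a NeuroD1 antibody, whereas the supplementary methods name an H3K27Ac antibody for ChIP. The paper also lists a NeuroD1 antibody, describes its ChIP-seq as of NeuroD1 and obtained its H3K27Ac data by another method. The peaks are used here as labelled.

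NeuroD1 is a basic helix-loop-helix (bHLH) transcription factor of the neuronal lineage. Like other tissue-restricted bHLH factors, it binds DNA as a heterodimer with a broadly expressed E protein, at a short motif called the E-box. ID proteins keep the helix-loop-helix but lack the basic region that touches DNA, so they capture E proteins in dimers that cannot bind. The balance of E and ID proteins thereby sets how much active dimer a proneural factor can form, and ID genes are widely associated with undifferentiated, dividing cells.

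NeuroD1 peaks lay at every one of these genes except ID3. In all, 6 of 7 had a peak within 50 kb, against 39.9% of the 20037 protein-coding genes. All 3 E-protein genes and 3 of 4 ID genes were among them. The genes differ greatly in length, from 1222 bp for ID1 to 413773 bp for TCF4, and long genes offer more room for a peak. Among protein-coding genes with a body under 10 kb, as all 4 ID genes have, 35.7% had a peak within 50 kb. Among those with a body over 100 kb, as TCF4 and TCF12 have, the share was 43.3%. The same 6 genes had a peak within 3 kb, where the share over all protein-coding genes was 21.4%. At that distance it was 13.3% for bodies under 10 kb and 33.4% for bodies over 100 kb. Of the 13 peaks, 5 overlapped the gene and 8 lay beside it. For 10 of them the gene named was also the nearest protein-coding gene, and for the other 3 it was not. TCF3, TCF12 and ID1 had 3 or more peaks each, as did 7.39% of protein-coding genes, whereas TCF4, ID2 and ID4 had 1. Within 10 kb only TCF12 kept 3 (1.81% of protein-coding genes had 3 or more), and so it was when a peak counted only for its nearest coding gene (1.38%).

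**Figure D1:**
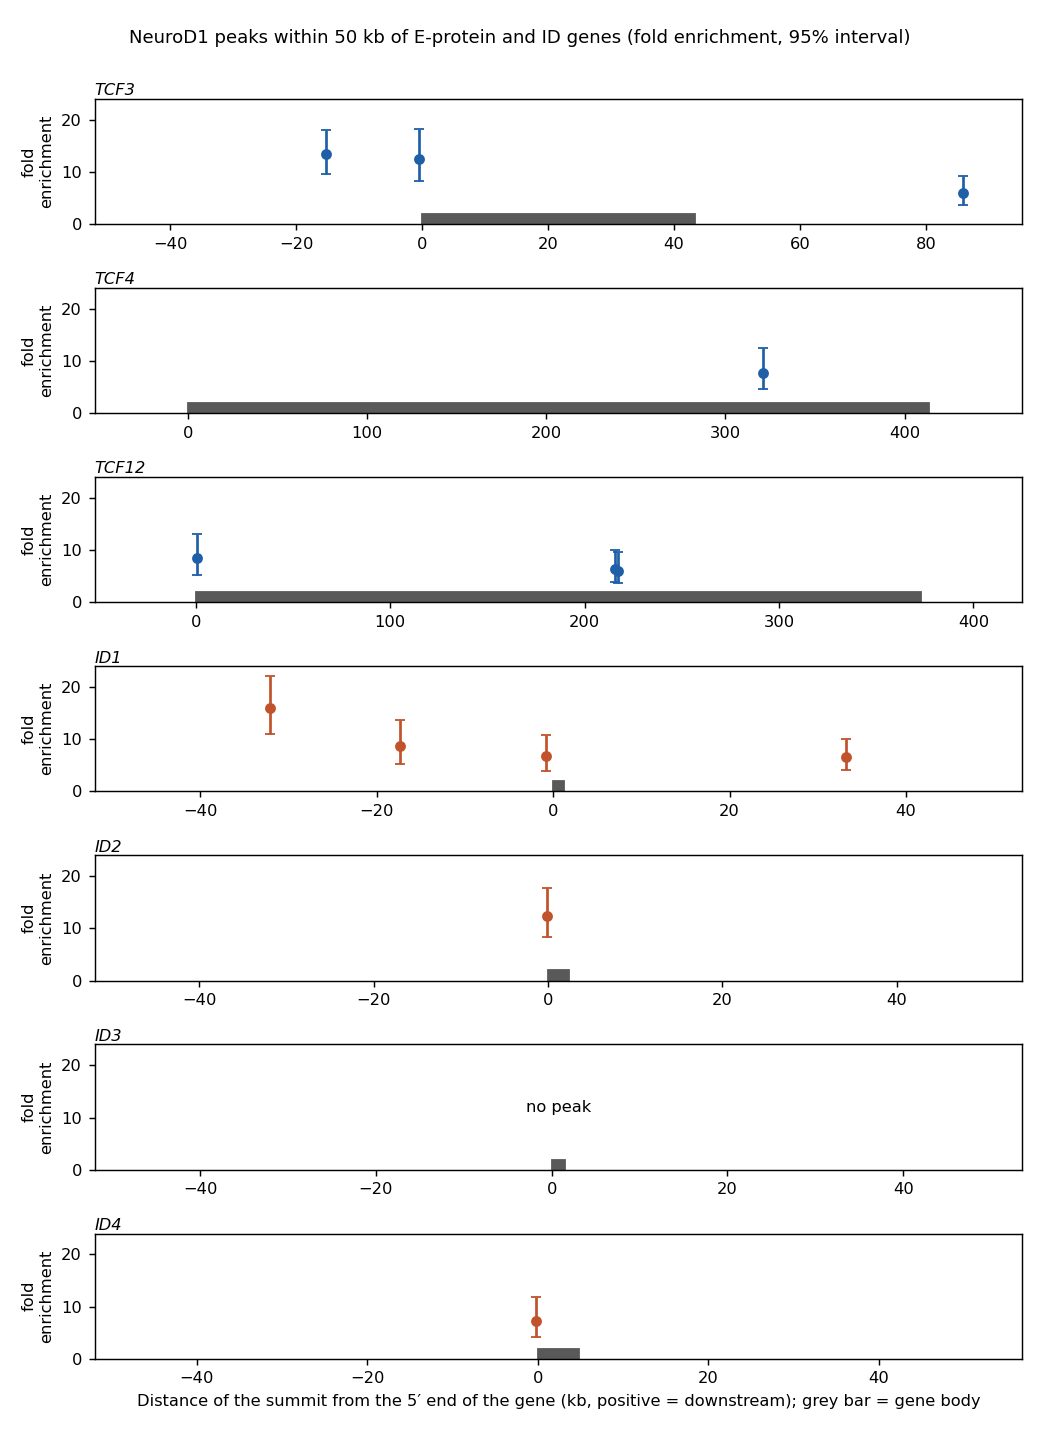
Each panel shows 1 gene with its NeuroD1 peaks within 50 kb, placed by the distance of the summit from the 5′ end of the gene in kb, with fold enrichment on the vertical axis. Bars are 95% exact Poisson intervals of the ChIP reads with the background held fixed, and grey bars are gene bodies. TCF3, TCF12, ID1, ID2 and ID4 each have a summit within 1 kb of a start, the TCF4 peak lies deep in the gene and ID3 has none.

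Each peak is described by its fold enrichment, which compares the ChIP pileup at the summit with the local background, and by the −log10 q that the peak caller gave it. The number of ChIP reads over the summit was worked out from these values. Over all 6183 peaks the median fold enrichment was 6.79, the upper quartile 8.68 and the 95th percentile 13.8. Positions are in hg38 and counted from 1.

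TCF3, on chromosome 19, encodes the E protein best known from lymphocyte development. It had 3 peaks. The promoter peak, from 1652690 to 1653253, ended its 564 bp only 75 bp short of the gene, and its summit lay 518 bp upstream of the annotated start. Its summit was enriched 12.5-fold, with a −log10 q of 20.6, from 25 ChIP reads (95% exact Poisson interval 16.2 to 36.9) over a background of 1.04. This was the widest of the 13 peaks, whose widths ranged from 158 to 564 bp with a median of 251 bp, against 220 bp over the whole list. The nearest other coding gene, UQCR11, lay 47228 bp away.

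The strongest TCF3 peak lay farther upstream, from 1667700 to 1667991, with its summit 15226 bp before the start and no other gene over it. It was enriched 13.4-fold, and its −log10 q of 31.7 was the highest of the 13, from 40 reads (28.6 to 54.5) over a background of 2.0. The corresponding intervals of fold enrichment, 9.67 to 18.1 here and 8.28 to 18.3 at the promoter, overlapped widely, so the pair of TCF3 peaks could not be ranked. The third peak, from 1566670 to 1566838, lay 42454 bp past the other end of TCF3 and inside MEX3D, which encodes an RNA-binding protein. Its fold enrichment was 5.89, the lowest of the 13, with an interval from 3.57 to 9.23 that did not reach that of the upstream peak. TCF3 had no peak inside its body.

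TCF4, on chromosome 18, is the E protein whose loss causes Pitt-Hopkins syndrome, a neurodevelopmental disorder. Its only peak, from 55314931 to 55315119, lay inside the gene and 320897 bp downstream of its 5′ end. Enrichment was 7.71-fold with a −log10 q of 8.34, from 15 reads (8.40 to 24.7) over a background of 1.04. TCF4 has 10 annotated starts in the promoter table used here, and the summit lay 5875 bp downstream of the nearest. No peak covered any of these starts, although the TCF4 window of 513.8 kb was the longest of the 7. TCF4 was also far from other coding genes at this point, with the next, CCDC68, at 355470 bp.

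TCF12, on chromosome 15, encodes the third E protein, which acts in the nervous system and in cranial suture formation. Its strongest peak, from 56918412 to 56918778, spanned an annotated start at 56918644 and also overlapped the divergent transcript TCF12-DT. The summit lay 95 bp upstream of that start and 459 bp downstream of the 5′ end of the gene. Enrichment here was 8.53-fold with a −log10 q of 11.3, from 19 reads (11.4 to 29.7) over a background of 1.3. The nearest other coding gene, ZNF280D, lay 184903 bp away. The other peaks of TCF12 formed a close pair in the middle of the gene, with summits 1457 bp apart, 215520 bp and 216977 bp from the 5′ end. Their fold enrichments were 6.42 (3.89 to 10.1) and 6.06 (3.62 to 9.62), from 17 and 16 reads, so the pair did not differ beyond counting error. Both lay below the median of all peaks, and the table of genes gives no exons, so neither could be placed in an intron or exon.

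ID1, on chromosome 20, is a classic target of BMP signalling and an inhibitor of E proteins. It had the most peaks of the 7 genes, 4, of which 3 lay upstream. The peak nearest to the gene, from 31604342 to 31604499, had its summit 863 bp upstream of the start. Its fold enrichment was 6.79, equal to the median of the list after rounding, from 15 reads (8.40 to 24.7) over a background of 1.31. Farther upstream, the peak from 31587694 to 31588046 had its summit 17363 bp before the start, a fold enrichment of 8.68 and 17 reads (9.90 to 27.2). No annotated gene lay over either.

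The peak with the highest fold enrichment of all 13 lay farther still from ID1, from 31572992 to 31573369, with its summit 32064 bp upstream. It reached 15.9 (interval 11 to 22.2) with a −log10 q of 30.4, from 32 reads (21.9 to 45.2) over the lowest background, 1.04. In the whole list it ranked 183 by fold enrichment. It overlapped HM13-AS1 and LOC107985416, and the nearest coding gene was HM13, the gene of signal peptide peptidase, at 3449 bp, not ID1 at 31920 bp. The fourth peak, from 31638401 to 31638640, lay on the other side, inside COX4I2, which encodes an isoform of a cytochrome c oxidase subunit. It had a fold enrichment of 6.54, from 19 reads (11.4 to 29.7). Counting only peaks for which ID1 was the nearest coding gene left 2, with a highest fold enrichment of 8.68.

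ID2, on chromosome 2, is the ID protein most studied in neuroblastoma, where it has been studied as a partner of the retinoblastoma protein. It had a single peak, from 8681811 to 8682078, which covered the annotated start and also overlapped ID2-AS1. The summit lay 116 bp upstream of the start. It was enriched 12.3-fold (8.28 to 17.7) with a −log10 q of 21.5, from 27 reads (17.8 to 39.3) over a background of 1.23. The nearest other coding gene, KIDINS220, lay 39003 bp away. Its value was higher than that of 92.4% of all peaks.

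ID4, on chromosome 6, encodes the family member with roles in neural progenitors. Its only peak, from 19837076 to 19837326, ended 44 bp before the gene, with the summit 178 bp upstream of the start. It had a fold enrichment of 7.23 (4.18 to 11.8), a −log10 q of 7.26 and 14 reads (7.65 to 23.5) over a background of 1.04. The nearest other coding gene, MBOAT1, lay 262358 bp away. The peak had the lowest read count of the 13 peaks. Because reads are whole numbers, many peaks share a value, and 191 peaks of the list had this same fold enrichment.

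ID3, on chromosome 1, encodes an inhibitor often expressed together with ID1. It had no peak in its body of 1576 bp or within 100 kb of it. The nearest peaks lay 1185569 bp away on one side (fold enrichment 7.71) and 1620231 bp away on the other (19.8). The stretch between these neighbouring peaks was 2.81 Mb long and held 40 protein-coding genes, which by its definition have no peak. Of all protein-coding genes, 9.65% had no peak within 1 Mb. At the lowest background, no peak with fewer than 8 reads, or a fold enrichment under 4.34, was in the list. The reads and background at ID3 are not known, so weaker binding there could not be judged.

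The sequences at the starts of ID2 and ID4 show what lay under a promoter peak of an ID gene. They are set beside TCF12, where 30 bases at the summit are given, and beside ID3, the ID gene with no peak. All are RefSeq sequences of GRCh38.p14, written 5′ to 3′ on the strand of the gene, and capitals mark each E-box, CANNTG. The ID2 sequence is the peak up to the base before the start (chr2:8681811-8682055, plus strand), and that of ID4 is the part of the peak within 250 bp of the start (chr6:19837120-19837326, plus strand). The TCF12 bases are chr15:56918535-56918564 on the plus strand, and the ID3 sequence is the 250 bp before the start (chr1:23559502-23559751, minus strand).
ID2: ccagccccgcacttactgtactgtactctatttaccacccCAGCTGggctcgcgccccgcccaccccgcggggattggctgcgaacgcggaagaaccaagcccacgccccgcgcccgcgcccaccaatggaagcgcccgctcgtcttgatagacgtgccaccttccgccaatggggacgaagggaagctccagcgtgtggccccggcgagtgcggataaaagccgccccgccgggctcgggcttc
ID4: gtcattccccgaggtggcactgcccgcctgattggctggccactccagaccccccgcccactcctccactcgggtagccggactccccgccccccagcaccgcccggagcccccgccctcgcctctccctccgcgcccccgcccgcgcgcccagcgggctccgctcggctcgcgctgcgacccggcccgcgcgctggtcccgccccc
TCF12: gacagctcctccccgccccctctgccggcc
ID3: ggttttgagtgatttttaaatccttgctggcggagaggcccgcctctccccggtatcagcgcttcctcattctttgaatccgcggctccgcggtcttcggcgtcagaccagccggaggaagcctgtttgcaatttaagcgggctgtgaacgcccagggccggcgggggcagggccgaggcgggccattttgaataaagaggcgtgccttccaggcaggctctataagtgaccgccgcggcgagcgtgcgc

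The ID2 sequence held 1 E-box, CAGCTG, which began 205 bp upstream of the start and lay 84 bp from the summit. The ID4 sequence held none, and the 1 E-box of the ID4 promoter, also CAGCTG, began 21 bp upstream of the start, outside the peak. Neither the 30 bases of TCF12 nor the ID3 sequence held a CANNTG. The motif was searched in windows from 250 bp before to 50 bp after each annotated start, where it reads the same on both strands. It was present in 65.1% of 22078 such windows of coding genes, and CAGCTG or CAGATG on either strand, the forms associated with NeuroD1, in 27.6%. Windows at the starts of TCF3, ID1 and ID3 held no E-box, and of the windows that overlapped a peak, those of TCF3, TCF12, ID2 and ID4, only those of ID2 and ID4 did. The summits of the TCF3, TCF4 and ID1 peaks and of the TCF12 pair lay outside these windows, so the bases around them were not examined.

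In its motif analysis of the NeuroD1 binding sites, the paper reports significant enrichment of motifs specific to NeuroD1. The search here was narrower. It covered only the 1638 of 6183 summits with 50 bp on each side within a promoter window, of a coding gene or not. A CANNTG was present in 27.1% of these 1638 stretches, and CAGCTG or CAGATG in 12% (196 of 1638). The stretches around the other summits were not searched. Over every stretch of that length in the promoter windows of coding genes alone, the shares were 30.4% for CANNTG and 9.87% for CAGCTG or CAGATG. The base composition differed as well. The median GC content was 68.0% in the 2025 coding windows with a summit and 61.7% in the 20053 without. The windows with a summit at TCF12, ID2 and ID4 had GC contents of 73.3%, 69.0% and 76.3%, and those without ranged from 35.7% at a TCF4 start to 78.3% at TCF3, the highest of all windows of the 7 genes. ID3 had 59.7%, ID1 62.7% and a TCF12 window without a summit 75%. The TCF3 window held no summit, but a peak overlapped 176 bp of it. Whether GC content differed between the windows of these genes with a summit and those without was not tested. The part of base composition in the E-box shares was not tested.

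Of the 7 genes, 5 had a summit within 1 kb of an annotated start, all but TCF4 and ID3, against 15.4% of 15843 coding genes with a start in the promoter table. Within 500 bp the count was 3, TCF12, ID2 and ID4, against 14.5%. The distances were 95 bp at TCF12, 116 bp at ID2, 178 bp at ID4, 518 bp at TCF3 and 863 bp at ID1. At TCF12, ID2 and ID4 the peak reached to within 44 bp of the gene or covered a start. The promoter peaks themselves fell into a higher pair, at TCF3 (12.5) and ID2 (12.3), and a lower group, at TCF12 (8.53), ID4 (7.23) and ID1 (6.79). The intervals of these 5 peaks all overlapped, the lower end of 8.28 at TCF3 and ID2 lying under the upper end of 10.9 at ID1.

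**Figure D2:**
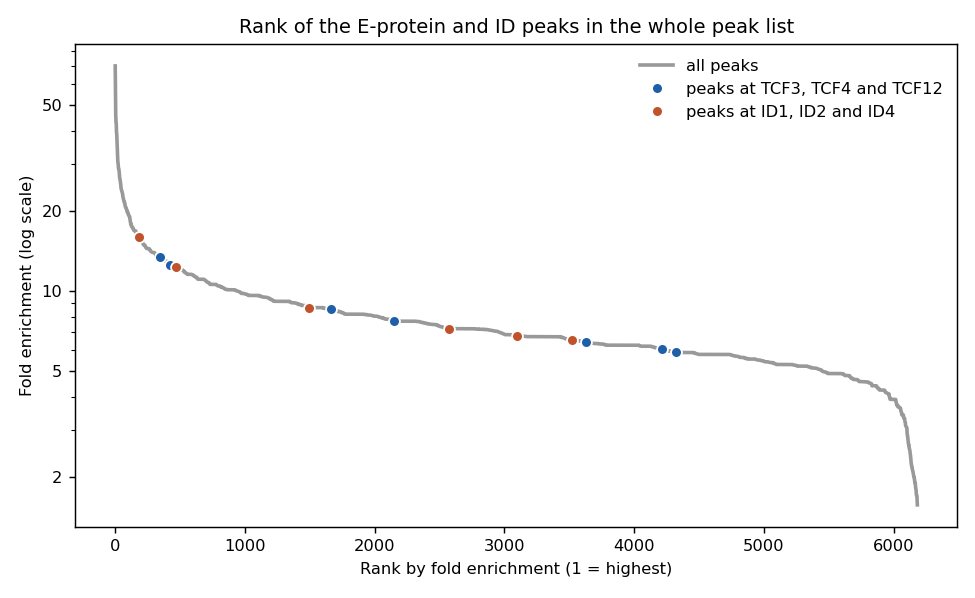
Fold enrichment (log scale) is plotted against rank for all 6183 peaks as a grey line, with the 7 peaks at E-protein genes in blue and the 6 peaks at ID genes in orange. The marked peaks run from rank 183 at ID1 to rank 4324 near TCF3, and 4 of them lie above the upper quartile of 8.68.

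Ordered by their highest peak, the genes ran ID1 (15.9), TCF3 (13.4), ID2 (12.3), TCF12 (8.53), TCF4 (7.71) and ID4 (7.23), with ID3 without a value. ID1 came first through the peak nearest to HM13. With only peaks nearest to the gene named, ID1 had 8.68, below TCF3 and ID2, and by −log10 q the upstream TCF3 peak (rank 267) stood ahead of that by HM13 (rank 288). None of the 15 pairs among these 6 highest peaks had separate intervals, though overlap of intervals does not show that peaks are equal. Among all 78 pairs of the 13 peaks, 7 had separate intervals. Each of them set the ID1 peak at 15.9 or the upstream TCF3 peak at 13.4 against a peak with a fold enrichment of 6.79 or less. By rank in the whole list, the E-protein peaks ran from 348 to 4324 and the ID peaks from 183 to 3521.

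The median fold enrichment of the 13 peaks was 7.71, with 8 above the median of 6.79 over all peaks. Their median ChIP read count was 17, the same as that of all peaks, and their range was 14 to 40. Their background lay between 1.04 and 2.0, while 2.0 was the upper quartile of all peaks.

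Genes that act with E proteins and ID proteins were counted by the same rule of 50 kb. Of 46 tissue-restricted bHLH genes whose products pair with E proteins, 17 had a peak (37.0%, against 39.9% of coding genes). The highest fold enrichments were at ATOH8 (14.99, in the gene), at NHLH2 (14.96, 2351 bp from it), and 27344 bp from HAND1 (12.04). ATOH8 is related to the fly proneural factor atonal, NHLH2 acts in neurons of the hypothalamus, and HAND1 acts in heart and placenta. The 15 cofactor genes include the histone acetyltransferases, corepressors and LIM-domain complexes that E proteins recruit. Of these 15 genes, 9 had a peak, against 39.9% of coding genes, and the difference was not tested. The highest were in the bodies of SSBP4 (17.3), SSBP2 (16.99) and SSBP3 (14.2), whose products stabilise LDB1 in complexes that contain bHLH dimers. The highest peak counts in the lists were 6 at SSBP3, all within 3 kb, and 6 at NHLH1, of which 2 lay within 3 kb. Of coding genes, 7.39% had 3 or more peaks within 50 kb, and the share with 6 or more was not counted.

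Of 7 genes of other E-box repressors, 3 had a peak (42.9%), the highest at 17.3 but 46473 bp from SNAI1, with 8.68 at 34249 bp from SCRT2 and 7.23 at 1233 bp from SCRT1. Of 19 genes for BMP signalling, which induces ID genes, and for the turnover of ID proteins, 8 had a peak (42.1%). SMAD6, an inhibitor of BMP signalling, had the highest, with 11.6 at 796 bp from the gene. The peak by FZR1, which directs the anaphase-promoting complex to ID2, had 11.1 and lay 19276 bp away. The peak in USP1, a deubiquitinase reported to stabilise ID proteins, had 9.81. The shares of the 4 lists were not tested against that of all coding genes.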

How the data were processed

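One NeuroD1 ChIP library was analysed from its deposited peak list. Per the labels, the submitters' processing notes name hg38, BWA 0.7.17 and MACS2 2.2.7, whereas the peak names hold macs3. The fold enrichment deposited by the authors is a ratio, taken as (pileup + 1)/(background + 1). The deposited −log10 p and −log10 q and the deposited score (−log10 q scaled to whole numbers) belong to the summit. The last deposited column, fold over width, was not used. The total depth is unknown.

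The weight of 1 ChIP read, 0.98, was fitted from fold enrichment and −log10 p. Reads and background were then solved by the Poisson formula, with the commonest background, 1.04, as the lowest allowed. In a test on data simulated with the same formula, without a lowest background, reads were recovered for 100% of 1000 peaks. That checks the solving step, not whether the deposited values follow the formula. For the deposited peaks, 99.9% of the −log10 p values were fitted within 0.01, and the highest misfit was 0.0905. Intervals are exact Poisson at 95% with background fixed.

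Genes and starts came from RefSeq tables of GRCh38.p14, the assembly also called hg38. Coding genes were those on chromosomes, 20037 in number. The promoter table has no entry for some coding genes. It held starts for all 7 genes studied. All 7 genes and every peak within 50 kb of them are named, with the nearest other coding gene for some of the peaks. From each list, up to 3 genes with the highest fold enrichment within 50 kb are named. The genes and lists were chosen with earlier results of these data known. The counts near starts and of 3 or more peaks, and the ID3 gap, were added after the values were seen. Figures were drawn with matplotlib 3.10.9, and all else was computed in Python 3.11.15 with scipy 1.17.1, pandas 2.3.3 and numpy 2.4.6.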

Additional observations from a re-analysis of the deposited data

How the results depend on the processing

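The count of 6 genes with a peak was the same at 3, 10 and 100 kb, with a −log10 q or a fold enrichment of at least 5, and with the summit or 50% of the peak in the window. The number of peaks, 13, fell to 8 at both 3 kb and 10 kb, where fewer bases are searched. The share of coding genes with a peak, 39.9%, was 21.4% at 3 kb, 25.1% at 10 kb, 50.8% at 100 kb, 33.7% with a −log10 q of at least 5, 37.4% with a fold enrichment of at least 5, 35.7% for bodies under 10 kb and 43.3% for bodies over 100 kb. With only peaks whose nearest coding gene is the gene named, the highest fold enrichment at ID1 fell from 15.9 to 8.68, and the genes with at least 3 peaks from 3 to 1. At 10 kb that count was also 1. The shares of coding genes with at least 3 peaks were then 1.38% and 1.81%, against 7.39%. The highest ID1 peak moved from rank 183 to rank 288 by −log10 q. With 500 bp in place of 1 kb, 3 genes in place of 5 had a summit near a start, against 14.5% of coding genes. The alternatives for starts and for 3 or more peaks were chosen after seeing the data.

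TCF3, ID1 and ID4 have no peak in the body, so no value restricted to the body was given. The E-box alternatives for whole peaks were not run, because no genome sequence was used. No paired analysis was possible because a single ChIP library has no partner. Between 14 and 40 reads per summit limit any ranking of these peaks.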
